A study of Homo sapiens with 8 samples.

Results

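The transcripts described are 9 genes of MHC class I antigen presentation, chosen by name and found in 1 row each of a table of 25906 genes: NLRC5, HLA-B, HLA-C, HLA-E, B2M, TAP1, TAP2, TAPBP and PSMB9. All 9 passed the filter on low values that left 12583 genes for testing. They were measured by RNA sequencing of total RNA in 8 libraries from 2 established human myeloma lines, MM.1S and NCI-H929, both grown from the malignant plasma cells of patients. Every culture had been given a lentiviral vector 72 hours earlier, either empty or carrying CTBP2, a transcriptional corepressor, for overexpression. By its labels each line has 2 libraries of each vector, biological duplicates by the study's design. Whether they came from separate transductions is not stated, so p-values measure the spread between these libraries, which may be partly technical. The promoter that drives CTBP2 in the vector is not given in the sources used here, and all comparisons are between transduced cells.

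MHC class I molecules show peptides from inside the cell to CD8 T cells. A heavy chain, such as HLA-B, HLA-C or HLA-E, pairs with the light chain B2M in the endoplasmic reticulum, is held by tapasin at the peptide transporter built from TAP1 and TAP2, and leaves for the surface once a peptide is bound. Peptides come largely from the proteasome, and PSMB9 is a catalytic subunit of the immunoproteasome form. NLRC5 is the transactivator of the class I genes, and acts at a promoter module that it reaches through DNA-bound factors.

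Upstream sequences of 6 members are shown so that the short elements of the heavy chain promoters can be compared with those of the light chain, transporter and tapasin. RefSeq promoter windows on GRCh38.p14 were matched for 7 of the 9 members, with none used here for HLA-E and NLRC5, and motifs were searched on both strands in the 250 bases before each gene's start. HLA-B and HLA-C, whose 250 bases were 89% identical, carry a match to the kB consensus, the core of a cyclic AMP response element (TGACG) and CCAAT boxes (CCAAT, or ATTGG on the other strand). These are in capitals in 145 bases of the minus strand, at chr6:31357220-31357364 and chr6:31272133-31272277 in the same order.
HLA-B: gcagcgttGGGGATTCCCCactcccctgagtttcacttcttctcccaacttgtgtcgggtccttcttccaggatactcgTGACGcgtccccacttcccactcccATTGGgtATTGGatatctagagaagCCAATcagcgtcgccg
HLA-C: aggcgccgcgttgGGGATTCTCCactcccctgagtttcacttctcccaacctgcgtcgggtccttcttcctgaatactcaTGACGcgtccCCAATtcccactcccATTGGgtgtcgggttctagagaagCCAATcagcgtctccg
The core of the interferon response element was searched only in the exact form GAAA, any 2 bases, GAAA. Elements that depart from these letters were not searched, so the lack of a match does not mean that the element is absent. This exact core had no match upstream of HLA-B and HLA-C, and matched upstream of B2M, TAP1, TAP2 and TAPBP. It was thus found in 4 of the 7 members, against 3.02% of all 35116 windows of that length. It stands in capitals in B2M (plus strand, chr15:44711357-44711486, with TGACG and ATTGG also in capitals), TAP1 (minus strand, chr6:32853755-32853854, as its reverse complement), TAP2 (minus strand, chr6:32838740-32838829) and TAPBP (minus strand, chr6:33314079-33314158). In B2M, TAP1 and TAPBP it matches at 2 overlapping places. Matches to the kB consensus in the windows of B2M, TAP1 and TAPBP, and to TGACG in that of TAP2, are left in lower case.
B2M: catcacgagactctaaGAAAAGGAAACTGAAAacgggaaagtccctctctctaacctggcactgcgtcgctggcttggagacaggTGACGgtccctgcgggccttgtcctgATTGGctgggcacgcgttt
TAP1: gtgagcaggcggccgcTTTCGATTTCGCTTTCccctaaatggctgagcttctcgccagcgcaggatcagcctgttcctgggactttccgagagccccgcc
TAP2: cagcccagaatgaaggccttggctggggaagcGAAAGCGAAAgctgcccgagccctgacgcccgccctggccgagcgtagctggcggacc
TAPBP: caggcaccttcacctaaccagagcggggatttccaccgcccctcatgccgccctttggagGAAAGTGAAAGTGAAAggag
The kB consensus matched in 5 of the 7 members against 5.21% of all windows, TGACG in 5 against 21.2%, CCAAT in 5 against 32% and the gamma-activated site TTCNNNGAA in 1 (TAP1, at the second of its 2 listed starts) against 6.57%. TAP1 and PSMB9 lie head to head, with 488 bases between their starts, and share the stretch between them. Their CCAAT matches are the same bases of that stretch, counted once for each gene. A match is a run of letters and was not tested as a binding site.

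The genes that tell the lines apart went against the label of 2 libraries, so the line of each library was read from CCND2 and FGFR3, neither of which is a class I gene. CTBP2 replicate 2 labelled MM.1S had 0.0582 FPKM (fragments normalized to transcript length and library size) of CCND2 and 22.2 FPKM of FGFR3, as NCI-H929 cells do. CTBP2 replicate 2 labelled NCI-H929 had 60.7 FPKM of CCND2 and 0.0399 FPKM of FGFR3, as MM.1S cells do. The other 6 libraries carried the genes of their label. CTBP2 followed the vector labels, at 0.148 to 0.213 FPKM with empty vector and 1621 to 5884 FPKM with CTBP2. By the line read from CCND2 and FGFR3, the CTBP2 libraries had 1621 and 2145 FPKM of it in MM.1S cells. In NCI-H929 cells they had 3427 and 5884 FPKM. Where the change with CTBP2 differs between lines, line and CTBP2 level therefore cannot be told apart. MM.1S cells and NCI-H929 cells below mean the line read in this way, so the library labelled NCI-H929 is 1 of the 2 CTBP2 libraries of MM.1S cells, and the one labelled MM.1S is 1 of the 2 of NCI-H929 cells. Each called result of the 9 genes is also given with labels as written and in the 6 libraries without those 2. An estimate of depth, read off the smallest steps in the values, gave 15950000 to 21000000 fragments per library. All 8 measured plasma cell markers were above 1 FPKM in all libraries. Of 5 T or NK cell markers, 2 reached 1 FPKM in any library, and their summed level was 1.08 to 4.81 FPKM with empty vector and 3.06 to 55.1 FPKM with CTBP2. The highest was CD3E, at 53.1 FPKM in CTBP2 replicate 2 labelled MM.1S, while CD3D stayed at or under 0.214 FPKM. None of 5 myeloid or 5 fibroblast markers reached 1 FPKM. Epithelial markers summed to 0.952 to 18.5 FPKM with empty vector and 2.32 to 27.9 FPKM with CTBP2, mostly KRT18 in NCI-H929 cells, and erythroid markers to 2.82 to 8.01 and 0.668 to 2.78 FPKM. The part of these markers in the results was not tested.

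NLRC5 (Entrez 84166) rose with CTBP2 and was the only one of the 9 genes to pass in both lines together as the values were deposited with all 8 libraries and a variance trend. MM.1S cells had it at 1.10 and 0.985 FPKM with empty vector and at 1.71 FPKM with CTBP2, and at 1.90 FPKM in the CTBP2 library labelled NCI-H929. NCI-H929 cells had it at 2.40 and 1.86 FPKM with empty vector and at 8.69 FPKM with CTBP2, and at 6.90 FPKM in the CTBP2 library labelled MM.1S. The CTBP2 libraries lay above the empty vector libraries within each line, and the MM.1S CTBP2 libraries lay within the range of the NCI-H929 empty vector libraries or just below it. These levels correspond to an estimated 106 to 1093 fragments per library. Over the pair of lines the vector effect, a log2 fold change with 1 added to each FPKM as throughout, was 0.97 (SE 0.21, limma adjusted p = 0.00969). It was 1.02 (limma adjusted p = 0.0246) in the 6 libraries and passed in all 16 alternatives run other than the line labels as written, under which the same estimate had SE 0.46 and a limma adjusted p of 0.27. Of all tested genes 34.1% passed in this comparison, against 1 of the 9 members. Among all genes 2186 were higher and 2101 lower, a split that scaling to equal totals without immunoglobulin genes and CTBP2 moved to 3760 and 868, and median-of-ratios scaling to 2670 and 1734. The median log2 fold change was 0.24 over the members and 0.035 over all genes. Equal totals moved these medians to 0.53 and 0.27. Members that passed over both lines under other settings were HLA-B under the 3 other scalings (limma adjusted p = 0.0222 to 0.0494), TAP1 with quantile normalization and equal totals (0.0267 and 0.0181), B2M with equal totals (0.0474) and PSMB9 without NCI-H929 CTBP2 replicate 1 (0.0444), besides HLA-C and TAP2 as given below.

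Within NCI-H929 cells NLRC5 was 3.65 times as high with CTBP2 as with empty vector by mean FPKM, with a log2 fold change of 1.49 ± 0.16 (SE, with limma adjusted p = 0.00149). In the 6 libraries it was 1.63 (limma adjusted p = 0.00537), and under the labels as written 0.76 (limma adjusted p = 0.56). Within MM.1S cells the mean was 1.73 times as high, with a log2 fold change of 0.46 ± 0.16 (SE, with limma adjusted p = 0.128), which did not pass. The difference between these changes was 1.03 (SE 0.23) and did not pass either (limma adjusted p = 0.0813, unadjusted p = 0.0021). None of the 9 members passed for the difference between lines by limma, where 1.26% of all genes did. An unadjusted p under 0.05 was found for 2 of the 9 (NLRC5 and HLA-B) and for 15.4% of all genes. All 9 estimates of the difference were above 0, with a median of 0.48 against 0.017 over all genes. With equal totals these medians were 0.70 and 0.19. The 9 estimates come from the same 8 libraries, and the share of all genes above 0 is not given here. A value above 0 means a more positive or less negative change in NCI-H929 cells. TAP2, for example, was lower with CTBP2 in both lines, at -0.47 in MM.1S cells and -0.30 in NCI-H929 cells. The estimates above 0 numbered 8 without NCI-H929 CTBP2 replicate 1 and 6 with the labels as written.

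**Figure D1:**
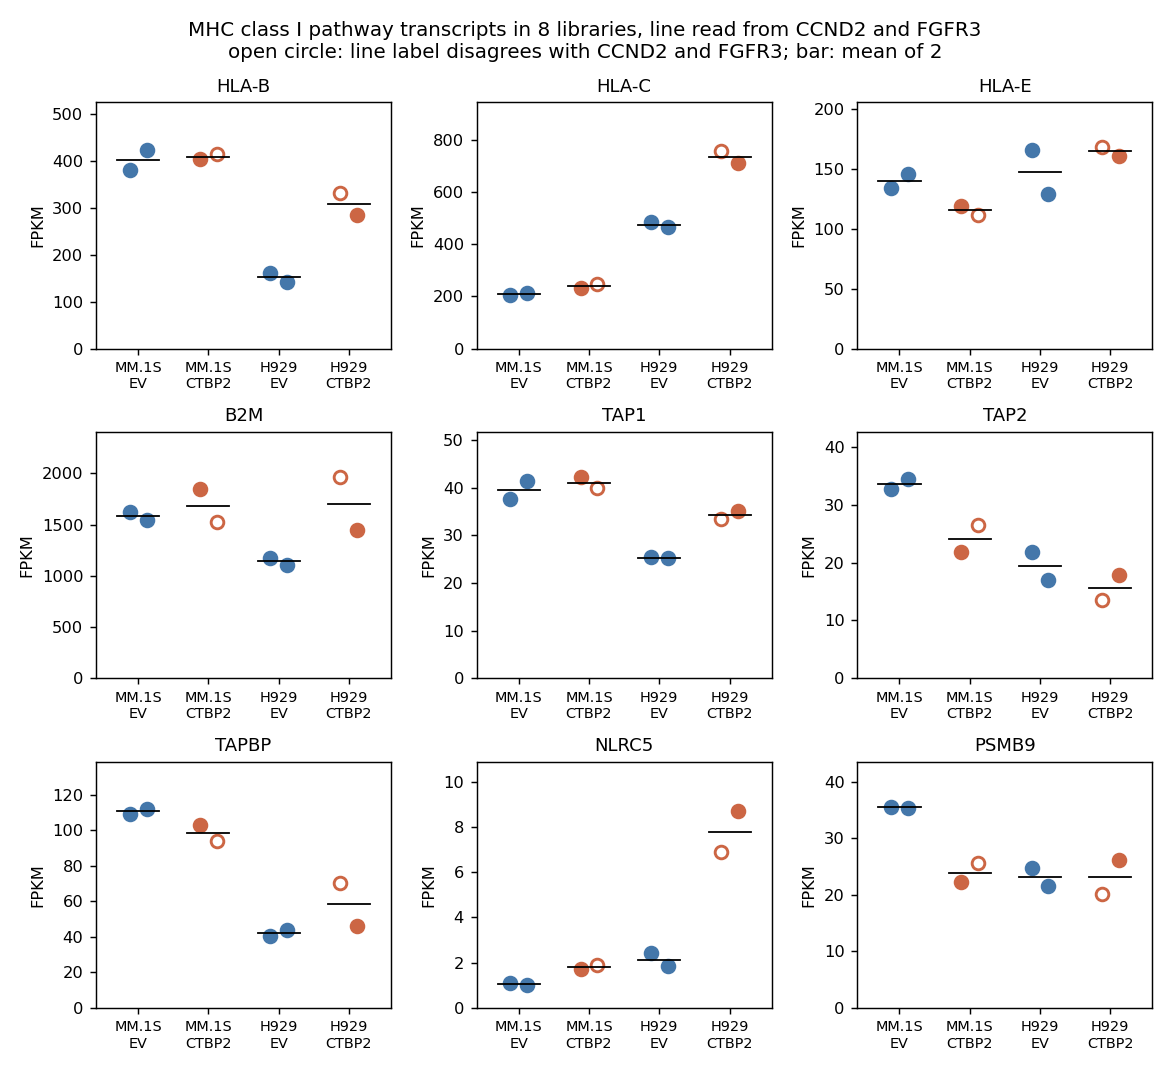
FPKM of the 9 genes in each library (points), by line read from CCND2 and FGFR3 and by vector (EV, empty vector, blue; CTBP2, orange), with bars at the mean of 2 libraries; open circles are the 2 libraries whose line label disagrees. NLRC5, HLA-B, HLA-C, B2M, TAP1 and TAPBP are higher in both CTBP2 libraries than in both empty vector libraries of NCI-H929 cells.

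The classical heavy chain transcripts rose with CTBP2 in NCI-H929 cells. HLA-B (Entrez 3106), which presents peptides to CD8 T cells, was at 161.1 and 142.3 FPKM with empty vector in NCI-H929 cells, at 285.0 FPKM with CTBP2, and at 332.0 FPKM in the CTBP2 library labelled MM.1S. In MM.1S cells it was at 380.9 and 422.5 FPKM with empty vector, at 403.7 FPKM with CTBP2, and at 413.4 FPKM in the CTBP2 library labelled NCI-H929. The NCI-H929 groups lay apart and the MM.1S groups overlapped. In NCI-H929 cells the mean was 2.03 times as high with CTBP2 and the log2 fold change was 1.02 ± 0.20 (SE, with limma adjusted p = 0.00817), and 0.91 (limma adjusted p = 0.0354) in the 6 libraries. Under the labels as written it was 1.18 and did not pass (limma adjusted p = 0.148), nor did it pass without NCI-H929 empty vector replicate 1 or 2 (limma adjusted p = 0.0532 and 0.0503). In MM.1S cells the log2 fold change was 0.026 ± 0.20 (SE, with limma adjusted p = 0.956). The difference between the lines was 0.99 (SE 0.28, limma adjusted p = 0.139).

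HLA-C (Entrez 3107), which also serves as a ligand of killer cell receptors, was at 484.5 and 465.6 FPKM with empty vector in NCI-H929 cells. It was at 710.4 FPKM with CTBP2, and at 759.3 FPKM in the CTBP2 library labelled MM.1S. MM.1S cells had it at 206.1 and 211.8 FPKM with empty vector, 231.2 FPKM with CTBP2 and 249.1 FPKM in the CTBP2 library labelled NCI-H929. The groups lay apart in both lines, with small gaps in MM.1S cells. In NCI-H929 cells the mean was 1.55 times as high and the log2 fold change was 0.63 ± 0.19 (SE, with limma adjusted p = 0.0383). That call was lost in the 6 libraries (0.58, limma adjusted p = 0.114), under the replicate block (limma adjusted p = 0.0595) and in 7 of the 8 fits with 1 library left out, and the sign turned with the labels as written (-0.17, limma adjusted p = 0.899). In both lines together HLA-C stood at 0.41 (SE 0.15, limma adjusted p = 0.0544) and did not pass, whereas it passed under the 3 other scalings and without a variance trend, at 0.0104 to 0.03.

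HLA-E (Entrez 3133), which presents leader peptides of other class I chains to NK cell receptors, varied least of the 3 heavy chains. In MM.1S cells it was at 134.3 and 145.9 FPKM with empty vector, 118.9 FPKM with CTBP2 and 112.1 FPKM in the CTBP2 library labelled NCI-H929. In NCI-H929 cells it was at 166.0 and 128.9 FPKM with empty vector, 161.0 FPKM with CTBP2 and 168.8 FPKM in the CTBP2 library labelled MM.1S. The CTBP2 libraries were lower in MM.1S cells, where the log2 fold change was -0.28 ± 0.18 (SE, with limma adjusted p = 0.365), and the groups overlapped in NCI-H929 cells, at 0.17 (SE 0.18, limma adjusted p = 0.495). The NCI-H929 value passed with quantile normalization (0.53, limma adjusted p = 0.0499) and equal totals (0.57, limma adjusted p = 0.0427). Its value in both lines together, -0.052, turned sign with the scaling.

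B2M (Entrez 567), the light chain, was the most abundant of the 9 transcripts per length. NCI-H929 cells had it at 1176 and 1107 FPKM with empty vector, 1448 FPKM with CTBP2 and 1962 FPKM in the CTBP2 library labelled MM.1S. MM.1S cells had it at 1621 and 1549 FPKM with empty vector, 1846 FPKM with CTBP2 and 1526 FPKM in the CTBP2 library labelled NCI-H929. The groups lay apart in NCI-H929 cells and overlapped in MM.1S cells. The log2 fold change in NCI-H929 cells was 0.56 (SE 0.31, limma adjusted p = 0.188), and B2M passed in none of the 5 comparisons. It did pass in NCI-H929 cells with quantile normalization (1.11, limma adjusted p = 0.0418), equal totals (0.97, 0.0301), no variance trend (0.56, 0.0491) and without NCI-H929 CTBP2 replicate 1 (0.78, 0.0285). The summed FPKM of HLA-B, HLA-C and HLA-E was 0.445 and 0.504 times that of B2M in MM.1S cells with empty vector and 0.408 and 0.508 times with CTBP2. In NCI-H929 cells it was 0.690 and 0.666 times with empty vector and 0.799 and 0.642 times with CTBP2, so the vector groups overlapped in both lines.

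Of the peptide transporter, TAP1 rose in NCI-H929 cells and TAP2 passed in neither line. TAP1 (Entrez 6890) was at 25.5 and 25.2 FPKM with empty vector in NCI-H929 cells, 35.1 FPKM with CTBP2 and 33.4 FPKM in the CTBP2 library labelled MM.1S. In MM.1S cells it was at 37.6 and 41.4 FPKM with empty vector, 42.3 FPKM with CTBP2 and 39.9 FPKM in the CTBP2 library labelled NCI-H929. The groups lay apart in NCI-H929 cells, where the log2 fold change was 0.42 ± 0.14 (SE, with limma adjusted p = 0.0483). The call was lost in the 6 libraries (0.45, limma adjusted p = 0.145), with labels as written (0.54, limma adjusted p = 0.255), under the replicate block (limma adjusted p = 0.0747) and with any 1 library left out (limma adjusted p = 0.0726 to 0.184).

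TAP2 (Entrez 6891) was at 32.9 and 34.5 FPKM with empty vector in MM.1S cells, 21.8 FPKM with CTBP2 and 26.5 FPKM in the CTBP2 library labelled NCI-H929. In NCI-H929 cells it was at 21.9 and 17.0 FPKM with empty vector, 17.9 FPKM with CTBP2 and 13.5 FPKM in the CTBP2 library labelled MM.1S. The CTBP2 libraries were lower in MM.1S cells and the groups overlapped in NCI-H929 cells. Over the pair of lines it stood at -0.38 ± 0.14 (SE, with limma adjusted p = 0.055), which did not pass. It passed without NCI-H929 CTBP2 replicate 1 and without NCI-H929 empty vector replicate 2 (limma adjusted p = 0.0294 and 0.0497).

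Tapasin, encoded by TAPBP (Entrez 6892), was at 109.3 and 112.0 FPKM with empty vector in MM.1S cells, 102.7 FPKM with CTBP2 and 93.8 FPKM in the CTBP2 library labelled NCI-H929. NCI-H929 cells had it at 40.5 and 43.8 FPKM with empty vector, 46.3 FPKM with CTBP2 and 70.3 FPKM in the CTBP2 library labelled MM.1S. All MM.1S libraries lay above all NCI-H929 libraries. The CTBP2 libraries were lower within MM.1S cells (-0.17, SE 0.21, limma adjusted p = 0.632) and higher within NCI-H929 cells (0.43, SE 0.21, limma adjusted p = 0.142), and neither change passed. In the 6 libraries the NCI-H929 value was 0.13, and without NCI-H929 CTBP2 replicate 1 it was 0.72 (limma adjusted p = 0.0152), so the value and its call turned on which CTBP2 library was kept. They turned on the scaling too, since with equal totals all 8 libraries gave 0.83 (limma adjusted p = 0.028). The MM.1S value was above 0 with quantile normalization (0.081) and equal totals (0.018).

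PSMB9 (Entrez 5698), the immunoproteasome subunit, was at 35.6 and 35.4 FPKM with empty vector in MM.1S cells, 22.3 FPKM with CTBP2 and 25.6 FPKM in the CTBP2 library labelled NCI-H929. In NCI-H929 cells it was at 24.7 and 21.5 FPKM with empty vector, 26.1 FPKM with CTBP2 and 20.1 FPKM in the CTBP2 library labelled MM.1S. The CTBP2 libraries were lower in MM.1S cells, where the log2 fold change of -0.55 ± 0.17 (SE, with limma adjusted p = 0.0897) did not pass. It did pass without NCI-H929 CTBP2 replicate 1 and without CTBP2 replicate 2 labelled MM.1S. Both are libraries of NCI-H929 cells, so the MM.1S estimate stayed the same. Only the spread shared in the fit and the set of tested genes changed. In NCI-H929 cells the groups overlapped.

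In NCI-H929 cells 32.9% of all genes passed, 2298 higher and 1840 lower. Counted over the 9 genes, 4 rose there and none fell (HLA-B, HLA-C, TAP1 and NLRC5). In the 6 libraries 2 of them passed, HLA-B and NLRC5, and with the labels as written none did. In MM.1S cells none of the 9 passed by limma, where 5.47% of all genes did. An unadjusted p under 0.05 was found for 3 of the 9 (NLRC5, TAP2 and PSMB9) and for 26.9% of all genes. The libraries of the vectors did not overlap for 6 of the 9 genes in MM.1S cells, 2 higher and 4 lower with CTBP2. Of all genes 63.0% did not overlap there, 3979 higher and 3943 lower. In NCI-H929 cells 6 of the 9 did not overlap, all higher with CTBP2, against 68.0% of all genes in either direction, 4662 higher and 3900 lower. Over all 8 libraries the vector groups overlapped for all 9 genes, against 14.7% of genes that did not overlap. Counted in either direction, these shares differ little from the background within the lines. Whether the members differ from all genes in direction was not tested.

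**Figure D2:**
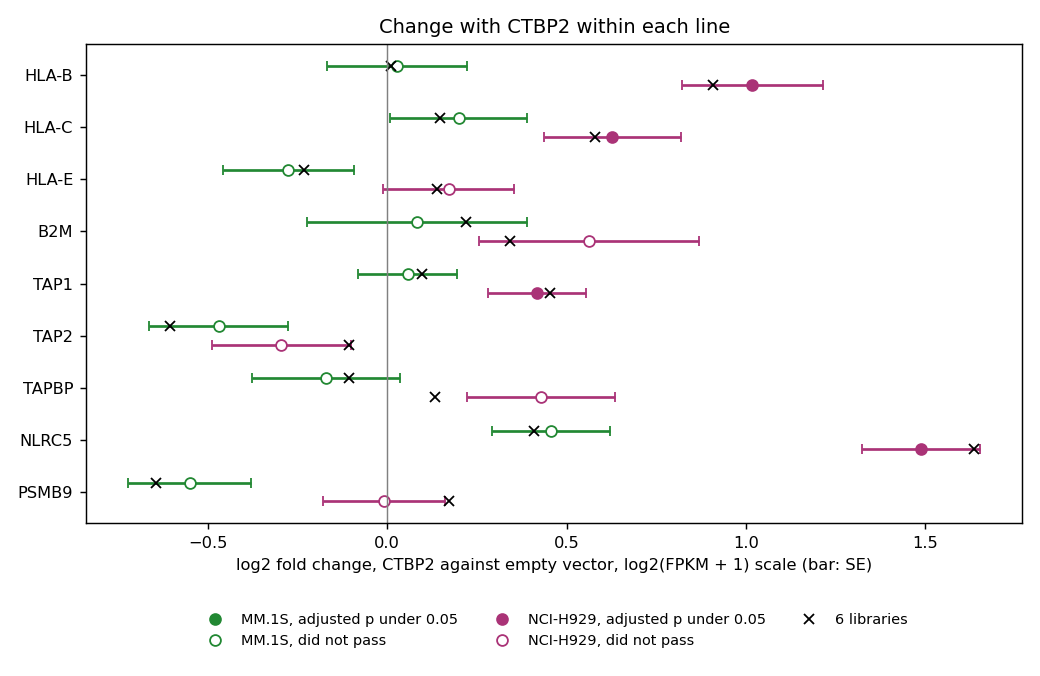
Log2 fold change of the 9 genes with CTBP2 on the log2(FPKM + 1) scale within MM.1S cells (green) and NCI-H929 cells (purple), with SE bars; filled points passed at a limma adjusted p under 0.05, and crosses are the values in the 6 libraries whose line label and line genes agree. NLRC5 and HLA-B in NCI-H929 cells stand furthest to the right, at 1.49 and 1.02.

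Levels with empty vector differed by line. Between the empty vector libraries 7 of the 9 passed, HLA-C and NLRC5 higher and HLA-B, TAP1, TAP2, TAPBP and PSMB9 lower in NCI-H929 than in MM.1S cells, where 50.8% of all genes passed. The labels of these libraries are not in doubt, but the spread was estimated from all 8. HLA-B stood at -1.40 (SE 0.20, limma adjusted p = 0.000603), TAPBP at -1.37 (SE 0.21, limma adjusted p = 0.000898), and HLA-C was higher by 1.18 (SE 0.19, limma adjusted p = 0.00132). TAP1, TAP2 and PSMB9 were at -0.62, -0.77 and -0.60, and NLRC5 at 0.61. Without the 2 doubtful CTBP2 libraries 7 passed too, while with the labels as written, when the spread within groups held both lines, none did (limma adjusted p = 0.204 for HLA-B). TAP2 lost its call without MM.1S or NCI-H929 empty vector replicate 2 (limma adjusted p = 0.058 and 0.0774). NLRC5 lost it without MM.1S empty vector replicate 1 or 2 or NCI-H929 empty vector replicate 1 (0.053, 0.0779 and 0.104) and with equal totals (0.0689), and PSMB9 without MM.1S empty vector replicate 1 or 2 or NCI-H929 empty vector replicate 2 (0.0784, 0.0738 and 0.107). HLA-E and B2M did not pass, at 0.063 and -0.47, but B2M did with quantile normalization (-1.09, limma adjusted p = 0.0273).

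Levels of the HLA genes carry a further limit between lines. Reference transcripts of HLA-B and HLA-C were 92.3% identical over 1537 aligned positions, and those of HLA-B and HLA-E 83.3%, the genes differ between people, and how the counting shared such reads is not given in the sources used here. The values of HLA-B, HLA-C and HLA-E are therefore uncertain against each other and between lines. In bulk RNA, fewer cells with a transcript and less of it per cell cannot be told apart.

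Ratios within a library do not depend on how libraries were scaled, and 8 were computed, chosen after the values had been seen. With empty vector HLA-C was at 0.541 and 0.501 times HLA-B in MM.1S cells, and at 3.01 and 3.27 times in NCI-H929 cells. With CTBP2 it was at 0.573 and 0.603 times in MM.1S cells and at 2.49 and 2.29 times in NCI-H929 cells. HLA-C was thus below HLA-B in all 4 MM.1S libraries and above it in all 4 NCI-H929 libraries. TAP1 over PSMB9, the head-to-head pair, was 1.06 and 1.17 with empty vector in MM.1S cells, and 1.03 and 1.17 in NCI-H929 cells, against 1.89 and 1.56 and 1.34 and 1.66 with CTBP2. All 4 CTBP2 libraries lay above all 4 empty vector libraries. TAP1 over TAP2 did the same, at 1.15 to 1.48 with empty vector and 1.51 to 2.47 with CTBP2. An exact permutation of the vector labels within lines gave a two-sided p of 0.0556 for both, the smallest that the 36 arrangements allow, and 0.148 after Benjamini-Hochberg adjustment over the 8 ratios, so this design could not pass 0.05. HLA-E over HLA-B was 0.345 and 0.353 with empty vector in MM.1S cells and 0.271 and 0.295 with CTBP2, and 0.906 and 1.03 against 0.508 and 0.565 in NCI-H929 cells (exact permutation p = 0.0556, adjusted 0.148). The immunoproteasome subunit PSMB8 over PSMB5, the constitutive subunit it replaces, was 0.455 and 0.598 with empty vector and 1.08 and 1.35 with CTBP2 in NCI-H929 cells, with overlap in MM.1S cells (exact permutation p = 0.111). In NCI-H929 cells PSMB5 itself was lower with CTBP2, at 36.3 to 55.0 FPKM against 81.6 to 87.7 FPKM with empty vector. PSMB8 overlapped between vectors there. PSMB9 over PSMB6 and PSMB10 over PSMB7 overlapped between vectors (exact permutation p = 0.5 and 0.667).

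**Figure D3:**
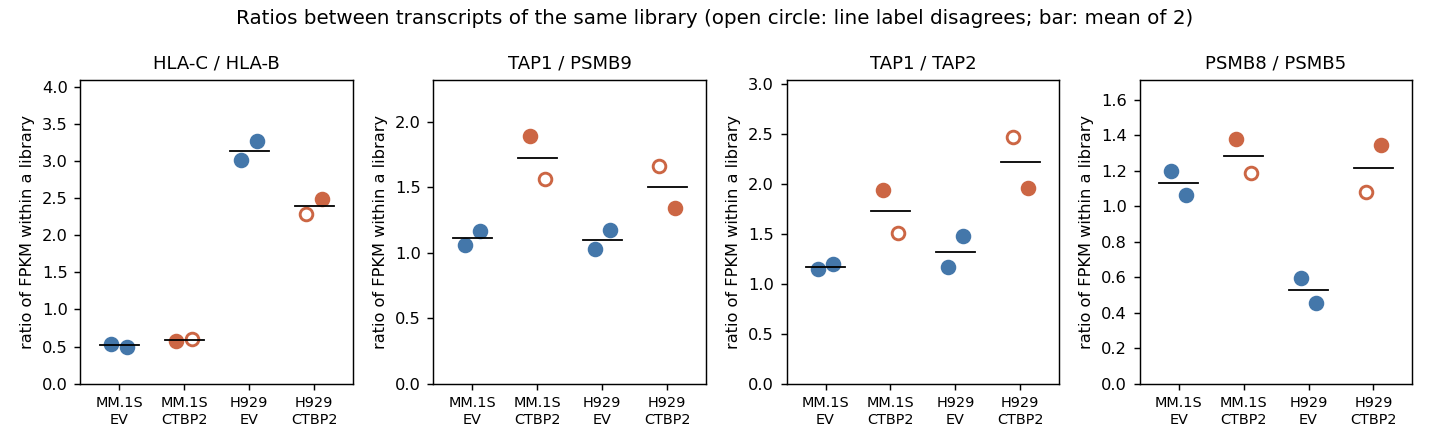
Ratios of FPKM within each library (points), by line and vector (EV, empty vector, blue; CTBP2, orange), with bars at the mean of 2; open circles are the 2 libraries whose line label disagrees. HLA-C over HLA-B separates the lines, and TAP1 over PSMB9 and TAP1 over TAP2 separate the vectors.

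Other genes of the pathway are given by role for both lines together, where 34.1% of all genes passed, in nearly equal numbers higher and lower. Among 9 other class I and class I-like chains, 7 were tested, 2 rose and 1 fell, which with so few genes is not set apart from that share. MR1, which presents vitamin B metabolites, rose by 1.14 (SE 0.20, limma adjusted p = 0.00549), from 1.95 to 7.53 FPKM with empty vector to 8.60 to 14.5 FPKM with CTBP2, with no overlap. HLA-F, a nonclassical heavy chain, rose by 1.01 (SE 0.26, limma adjusted p = 0.017), from 5.39 to 18.8 FPKM to 22.0 to 25.8 FPKM, also with no overlap. Both passed in the 6 libraries (limma adjusted p = 0.00808 and 0.0325) and neither passed with the labels as written (0.0604 and 0.102). MICB, a stress ligand of the NKG2D receptor, fell by 0.46 on the log2 scale (limma adjusted p = 0.03, and 0.128 in the 6 libraries).

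Of 10 genes of the immunoproteasome, its activator and peptidases, 1 rose and 3 fell, a share near the 34.1% of all genes. PSME2, a subunit of the proteasome activator PA28, fell by 0.85 (SE 0.20, limma adjusted p = 0.0131), and by 0.80 (limma adjusted p = 0.0207) in the 6 libraries. PSMB10, an immunoproteasome subunit, fell by 0.65 (limma adjusted p = 0.0216), THOP1, a peptidase, by 0.78 (0.0403), and NPEPPS, an aminopeptidase, rose by 0.46 (0.0238). These 3 did not pass in the 6 libraries. PSMB8 was at 37.2 to 58.5 FPKM with empty vector and 39.3 to 73.9 FPKM with CTBP2 and had a log2 fold change of 0.13 (limma adjusted p = 0.647). The constitutive subunits PSMB7, PSMB5 and PSMB6 had log2 fold changes of -0.61, -0.56 and -0.44 and did not pass (0.0611, 0.0625 and 0.134). Of 5 loading complex chaperones, TAPBPL, a tapasin-related peptide editor, rose by 0.66 (limma adjusted p = 0.0162, and 0.0204 in the 6 libraries), CANX, calnexin, fell by 0.41 (0.0351, and 0.0842 in the 6 libraries), and CALR was at -0.28 (0.196).

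Of 9 interferon receptor and signalling genes 4 rose and 1 fell, against 34.1% of all genes, with a median log2 fold change of 0.65 against 0.035 over all genes. IRF9, a transcription factor of the type I interferon response, rose by 1.16 (SE 0.17, limma adjusted p = 0.0038), and STAT2, its partner, by 0.91 (SE 0.14, limma adjusted p = 0.00453). IFNGR1, a chain of the interferon gamma receptor, rose by 0.65 (0.00822). JAK2, a receptor-bound kinase, rose by 0.67 (0.0113), and IFNAR2, a chain of the type I receptor, fell by 0.60 (0.00968). JAK1, another such kinase, was at 0.77 (limma adjusted p = 0.0648) and passed in the 6 libraries (0.67, limma adjusted p = 0.0406). The interferon genes IFNG, IFNB1, IFNL1 and IFNA1 did not pass the filter on low values and were not tested. The highest value among them was 0.342 FPKM, of IFNG with CTBP2 in MM.1S cells, where empty vector reached 0.108 FPKM. IFNG was at 0 in NCI-H929 cells. IFNB1 was at 0 with empty vector and at 0.0739 to 0.139 FPKM with CTBP2, near the floor. IFNL1 was at 0 throughout, and IFNA1 was above 0 only with empty vector. None of 11 class I promoter factors passed in both lines together (median -0.025), with IRF1 at 0.69 (SE 0.25, limma adjusted p = 0.0571), IRF2 at 0.30 (0.097) and NFYB at -0.26 (0.119). IRF1 rose in NCI-H929 cells, by 1.02 (SE 0.33, limma adjusted p = 0.0444, against 0.223 in the 6 libraries and 0.261 with labels as written). Among 7 genes reported to lower class I, 4 rose and 2 fell, against 34.1% of all genes that passed in either direction. TMEM127, a membrane protein reported to route class I molecules to the lysosome, rose by 0.78 (limma adjusted p = 0.00755), and its partner ubiquitin ligase WWP2 by 0.51 (0.0137, and 0.0563 in the 6 libraries). EZH2, the catalytic subunit of the Polycomb repressive complex that methylates histone H3, fell by 0.71 (0.0111), as did SUZ12 of the same complex, by 0.44 (0.0174). SUSD6, which acts with TMEM127, rose by 0.47 (0.0172, and 0.0503 in the 6 libraries), and MAL2, a trafficking protein, by 1.13 (0.019). JAK1, JAK2, IFNAR2, THOP1, SUZ12, SUSD6 and MAL2 were named after their values were seen. IRF9, STAT2, IFNGR1, JAK2, IFNAR2, TMEM127, EZH2, SUZ12 and MAL2 passed in the 6 libraries too, at limma adjusted p = 0.00404 to 0.0364. With the line labels as written, TMEM127 alone of the list genes named here passed over both lines (limma adjusted p = 0.0362).

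**Figure D4:**
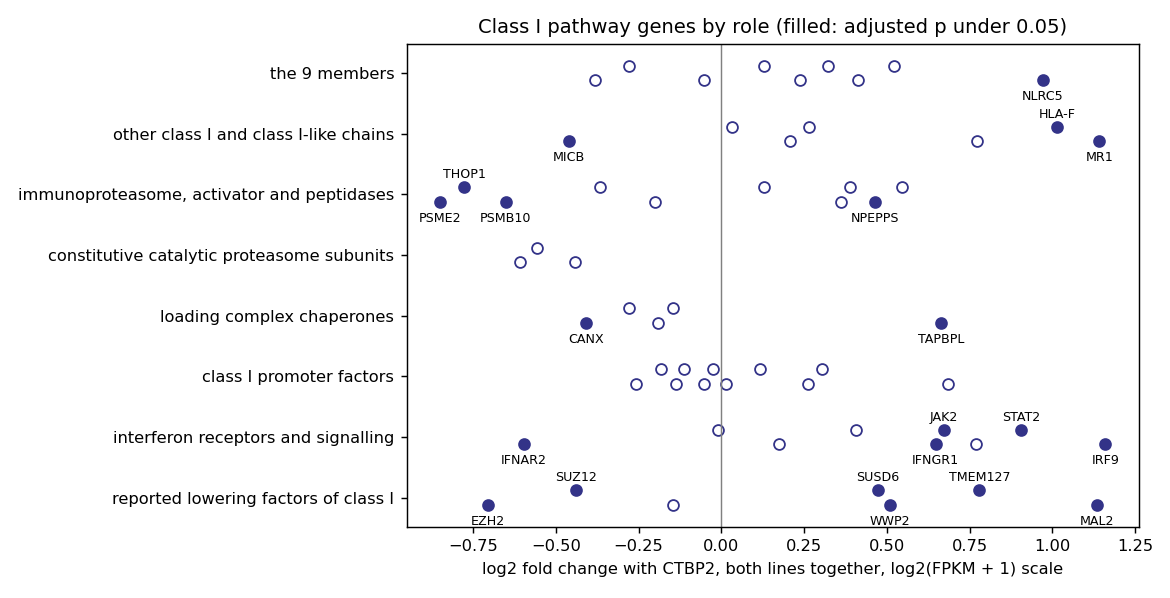
Log2 fold change with CTBP2 in both lines together for the 9 genes and for the tested genes of 7 lists of the pathway (points); filled and named points passed at a limma adjusted p under 0.05. NLRC5 is the filled point among the 9 genes, and IRF9 and MR1 lie furthest right in their lists.

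The 5 other genes with the pattern nearest to the median profile of the 9, by root mean square difference of centred log2(FPKM + 1) over the 8 libraries, were AP5B1 (0.0783), CHD4 (0.0878), ANKMY1 (0.0895), ELOVL5 (0.0973) and PPP2R2D (0.106), among 11706 compared. The 9 genes themselves were further from that profile, from 0.191 for B2M to 0.81 for NLRC5 and 0.8 for HLA-C, so the median does not describe each member.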

How the data were processed

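The values are FPKM as deposited by the authors for 25906 genes; the unit comes from the name of the table. Per the submitters' processing notes, which give no order, the tools include STAR 2.6.0b-1, Trimmomatic 0.36.5, DESeq2 2.11.40.2, FastQC 0.11.7 and HTSeq 0.9.1, and the build is GRCh37 (hg19). The tool that made the FPKM is not given in the sources used here. RefSeq promoters are of GRCh38.p14, so no other coordinates are printed.

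The filter asked for 1 FPKM or more in 2 or more libraries. log2(FPKM + 1) was fitted with limma 3.58.1 in R 4.3.3 (variance trend, Benjamini-Hochberg adjusted p under 0.05 over all 12583 genes). The comparison over both lines had terms for line and vector; the other comparisons used 1 mean per line and vector over all 8 libraries. Line was CCND2 or FGFR3 above 10 FPKM, vector the title. A fold change understates that of low genes. Members, lists and tests were chosen with earlier results of these data known. Of each list the 3 genes with the smallest p are named, with PSMB8, PSMB10 and IRF1, and 7 were added after their values were seen. A gene of the interferon signalling list is not reported here. The code was tested on simulated data. Depth came from 1 fragment steps of genes with 1 transcript over 1500 bases; 60.5 to 71.5% of low values came out whole within 0.1, against 20.0% by chance. Alternatives were labels as written, 6 libraries, pseudocount 0.1, no filter, 3 scalings, no variance trend, a replicate block and each library left out.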

Additional observations from a re-analysis of the deposited data

Results flagged for a closer look

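TAPBP differed in direction between the lines: both CTBP2 libraries were lower than both empty vector libraries in MM.1S cells and higher in NCI-H929 cells, and the difference of the log2 changes was 0.599 (SE 0.29, limma adjusted p = 0.382), which did not pass. In the 6 libraries whose line label and line genes agree it was 0.238 (limma adjusted p = 0.797). The opposite direction turned on the scaling, since the MM.1S change was above 0 with quantile normalization (0.081) and equal totals (0.018).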

How the results depend on the processing

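With line labels as written, none of the 9 genes passed (0) over both lines, in NCI-H929 cells or between empty vector libraries. All-gene calls then fell from 4287 to 420 (both lines), 688 to 3 (MM.1S), 4138 to 7 (NCI-H929), 158 to 2 (difference) and 6395 to 5 (empty vector). In the 6 libraries 2 members passed in NCI-H929 cells, with 1849 genes, against 1492 in MM.1S cells and 17 for the difference. Members called over both lines numbered 3 with median-of-ratios scaling, 4 with quantile normalization, 5 with equal totals (7 in NCI-H929 cells) and 2 with no variance trend. Pseudocount 0.1 gave 67 genes for the difference, and no filter 384 in MM.1S cells. Leaving out 1 library in turn gave 1 to 3 members over both lines (2452 to 4417 genes), 0 to 1 in MM.1S cells (6 to 1514), 1 to 5 in NCI-H929 cells (976 to 4869), 0 for the difference (5 to 208) and 4 to 7 between empty vector libraries (4586 to 6956).

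With the replicate number as a block, 2 members passed in NCI-H929 cells, and 412 genes in MM.1S cells and 60 for the difference. Deviations of same-numbered libraries of the 2 vectors correlated at 0.44 in MM.1S cells and 0.45 in NCI-H929 cells. Between lines they correlated at -0.28 to 0.027. The block effect was shared by the lines, so pairing within a line was not modelled, and the main fits did not take the numbers as pairing.

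Of 765 gene values over 17 alternatives, 666 kept direction and side of the threshold and 34 changed sign. With labels as written these were HLA-B -0.13, HLA-E 0.017 and TAP1 -0.070 in MM.1S cells, HLA-C -0.17, HLA-E -0.12, TAP2 0.17 and PSMB9 0.16 in NCI-H929 cells, and HLA-C -1.18, HLA-E -0.14 and NLRC5 -0.41 for the difference. PSMB9 in NCI-H929 cells did so in the 6 libraries, 0.17. Median-of-ratios scaling gave HLA-E 0.024 over both lines and PSMB9 0.065 in NCI-H929 cells. Quantile normalization gave HLA-E 0.23 over both lines, TAPBP 0.081 in MM.1S cells, PSMB9 0.16 in NCI-H929 cells and HLA-E -0.097 between empty vector libraries. Equal totals gave HLA-E 0.24 and PSMB9 0.0052 over both lines, TAPBP 0.018 in MM.1S cells, TAP2 0.088 and PSMB9 0.38 in NCI-H929 cells, and HLA-E -0.15 between empty vector libraries. Over the fits without 1 library, HLA-B spanned -0.049 to 0.10, TAP1 -0.010 to 0.12 and B2M -0.054 to 0.22 in MM.1S cells. Over both lines HLA-E reached 0.016 and 0.0094, and TAPBP spanned -0.049 to 0.21. In NCI-H929 cells HLA-E spanned -0.010 to 0.35 and PSMB9 -0.19 to 0.17. TAP2 spanned -0.015 to 0.36 for the difference, and HLA-E reached -0.12 between empty vector libraries. None of the 34 values that changed sign passed, and the cause was not tested. With 2 libraries per line and vector, small changes were not detectable.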
